A study of Mus musculus with 8 samples.

Results

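The report describes 35 genes of smooth muscle and of the contractile apparatus, Actg2 among them, out of 24059 gene symbols in the deposited count table. They were taken from the table by exact match of the gene name, and all 35 were present. RNA came from the caput epididymis, the proximal region of the duct in which sperm mature, of C57BL/6N mice at postnatal week 14. The groups, of 4 libraries each, were wild type (WT) mice and mice labelled Nell2-/- (Nell2-KO), for which the labels name no Cre, promoter or clone. Nell2 encodes a secreted glycoprotein, and the design asks how the caput transcriptome differs between the genotypes. The question for these genes is whether the fall of Actg2 is shared by other contractile genes. The labels do not say that replicates came from separate animals, so every p-value reflects variation among these libraries, which may be technical.

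Around the epididymal tubule lies a layer of smooth muscle that moves sperm along the duct. Smooth muscle shortens when calcium leads to activation of myosin light chain kinase and myosin then pulls on actin filaments, which tropomyosin, caldesmon and calponin coat and which vinculin, filamin and alpha-actinin tie to the membrane. Actg2 encodes the gamma smooth muscle actin typical of visceral muscle and Acta2 the alpha smooth muscle actin, and many of these genes are transcribed through serum response factor at a promoter element called the CArG box. In RNA of whole tissue, fewer smooth muscle cells and less RNA per cell cannot be told apart.

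Library totals ran from 801112 to 6256204 counts. Nell2-KO replicate 1 had the lowest total and the smallest share of reads in genes, 0.496 times the WT average (0.9 to 1.04 in every other library), and it was the lowest of its group for 18 of the 35 members. Malat1, a nuclear RNA, reached 7162 CPM (counts scaled to a common library size) in WT replicate 2, while the other WT libraries held 985 to 1130 CPM. Counts of called genes are given below for all 8 libraries and, where they move, without these libraries. Nell2 had 0 reads in all 8 libraries, so it does not check the genotype labels. Actg2, Acta2, Myh11, Tagln, Cnn1, Des and Lmod1, the defining smooth muscle markers, had reads in every library.

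Reads were 36 bases long, and the 6 actin genes are alike in sequence, so it matters how far such a read can tell them apart. Over 1131 coding bases aligned from the stop codon, Actg2 was identical to Acta2 at 83.8%, to Actc1 at 84.2% and to Acta1 at 84.7%. The 36 coding bases in which Actg2 and Acta2 differ most lie 699 to 664 bases before the end of the coding sequence, and they are shown here 5′ to 3′ from GENCODE M21 transcripts, because they are the kind of stretch that separates Actg2, which fell, from Acta2, which was not called. Capitals mark bases unlike Actg2, 10 in Acta2, 7 in Actc1 and 5 in Acta1.
Actg2: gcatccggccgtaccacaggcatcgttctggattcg
Acta2: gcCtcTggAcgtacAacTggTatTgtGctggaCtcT
Actc1: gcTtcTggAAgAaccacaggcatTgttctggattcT
Acta1: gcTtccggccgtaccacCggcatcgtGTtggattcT
The longest run that Actg2 and Acta2 share in this alignment was 29 bases, shorter than a read.
Actg2 and Acta2: gacatcaaggagaagctgtgctatgtagc
Accordingly, 0 of 1298 windows of 36 bases in the Actg2 transcript matched Acta2 exactly and 57 matched it within 2 mismatches. Between Actg2 and Actc1, 3 windows were identical and 105 were within 2 mismatches, which is 8.09% of the Actg2 windows and 7.3% of the 1438 Actc1 windows.

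Actg2 fell 40.7-fold, a fall known when the genes were listed, while Acta2, the other smooth muscle actin, overlapped between the groups. Actg2 (ENSMUSG00000059430.14, chr6:83512905-83536265, minus strand, mm10) was at 1103, 824, 1103 and 1045 CPM in WT replicates 1 to 4. In Nell2-KO replicates 1 to 4 it was at 16.9, 30.5, 25.0 and 25.1 CPM. The lowest WT library was thus far above the highest Nell2-KO library, and the Nell2-KO libraries lay close together. The mean went from 1019 ± 133 to 24.4 ± 5.61 CPM (SD, n = 4 each), which is -5.35 ± 0.20 (SE) on the log2 scale, or 40.7-fold lower (edgeR, adjusted p = 8.6e-09 over all genes tested). In Nell2-KO this rested on 12 to 164 reads per library, against 1683 to 2818 in WT. Actg2 was called lower under all 14 alternatives, at log2 fold changes of -5.46 to -5.26.

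Acta2 (ENSMUSG00000035783.9, chr19:34241090-34255590, minus strand) was at 332, 308, 268 and 261 CPM in WT and at 268, 344, 303 and 314 CPM in Nell2-KO. The groups overlapped, with means of 292 ± 33.6 and 307 ± 31.7 CPM (SD, n = 4 each). Its log2 fold change was 0.08 ± 0.14 (SE) and did not pass the test (edgeR, adjusted p = 0.789, 0.245 to 0.946 over the alternatives).

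Actc1 (ENSMUSG00000068614.7, chr2:114047282-114053548, minus strand), the alpha actin of cardiac muscle, fell as well, from a far lower level than Actg2. It had 59, 22, 57 and 57 reads in WT replicates 1 to 4, or 23.1, 10.8, 27.7 and 26.0 CPM. In Nell2-KO it had 0, 0, 2 and 2 reads, where a count of 0 allows up to 4.23 CPM in replicate 1 and 2.18 CPM in replicate 2 (3 counts; counting error only). All 4 WT libraries lay above these limits. On the log2 scale the fitted change was -6.09 ± 0.50 (SE; edgeR, adjusted p = 4e-06), and pooled scaled counts of 195 against 4 reads gave a ratio of 78.4 with an exact binomial 95% interval of 30.1 to 290.0. The call held under all 14 alternatives, but its size did not: log2 fold changes ran from -6.31 to -3.25, the smallest by limma on log2(RPKM + 1). Actc1 reads made up 2.09%, 1.31%, 2.51% and 2.49% of Actg2 reads in WT replicates 1 to 4 and 0%, 0%, 1.22% and 1.43% in Nell2-KO replicates 1 to 4. The part that reads fitting both genes have in the fall of Actc1 was not tested.

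The other 3 actins did not pass the test. Acta1, the alpha actin of skeletal muscle, averaged 21.7 ± 5.20 CPM in WT against 20.2 ± 7.35 CPM in Nell2-KO. Actb and Actg1, the cytoplasmic actins that every cell makes, were at 456 ± 44.0 and 255 ± 48.7 CPM in WT and at 416 ± 76.7 and 279 ± 101 CPM in Nell2-KO. Other annotated genes share 25.3% of the 36-base windows of Actb and 46.8% of those of Actg1, whereas Actg2 shares 0.444% and Acta2 0.972%. Counts of Actb and Actg1 are thus less certain, and how far the sharing changed them was not tested.

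**Figure D1:**
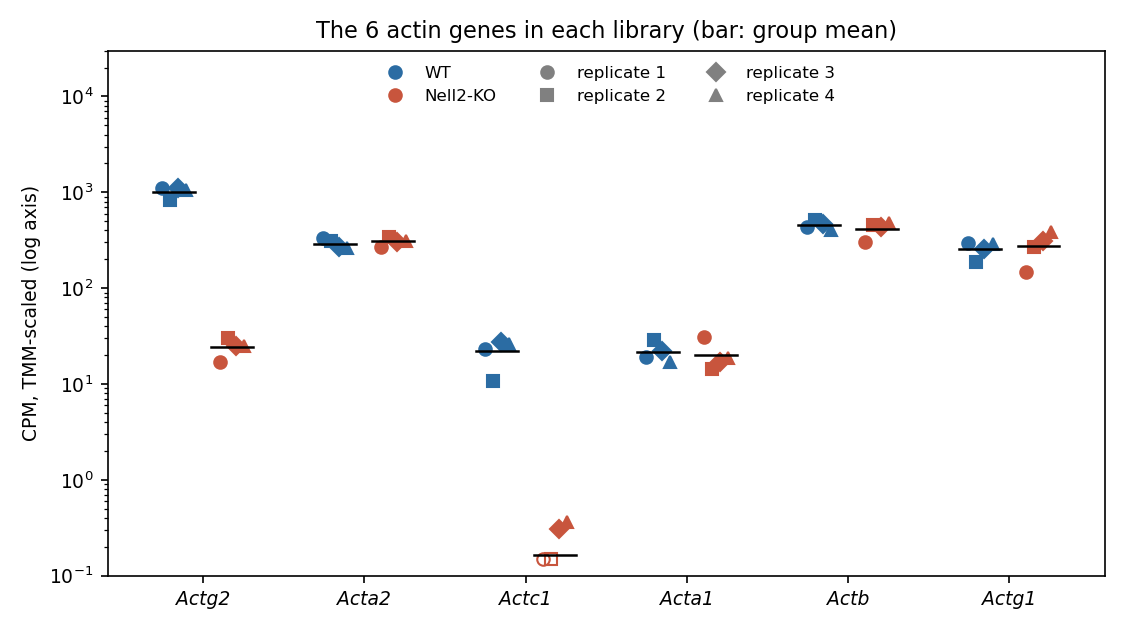
CPM of the 6 actin genes in each library on a log axis, with WT in blue, Nell2-KO in red, a symbol per replicate and a bar at the group mean; open symbols near the lower edge stand for 0 reads. Actg2 lies at 824 to 1103 CPM in WT and 16.9 to 30.5 CPM in Nell2-KO and Actc1 drops alongside, while Acta2, Acta1, Actb and Actg1 overlap between the groups.

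Of the 35 members, 33 had enough reads to be tested, and Myocd and Pln did not. Of the 33, 3 were called lower in Nell2-KO (Actg2, Actc1 and Vcl, 9.09%), 2 were called higher (Tpm1 and Pgm5, 6.06%) and 28 were not called at an edgeR adjusted p under 0.05. Among all 11062 genes tested, 8.71% were called lower and 6.24% higher, so the members' shares were near the background. The median log2 fold change was 0.05 over the members and 0.03 over all genes tested. The same 5 members had groups that did not overlap in CPM, against 12.6% of all genes lower without overlap and 9.49% higher, or 22.1% in either direction. Taking the 20 members typical of smooth muscle, of which 18 were tested, Actg2 was the gene called lower and Tpm1 and Pgm5 were those called higher. Over the 15 typical members tested and not called, log2 fold changes ran from -0.30 to 0.44 with a median of 0.06, and 0 had an unadjusted edgeR p under 0.05. The fall of Actg2 was thus not accompanied by called falls among the other 17 typical members tested.

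The lower calls did not turn on the libraries that stood apart, and some higher calls did. Without Nell2-KO replicate 1 the same 3 members were called lower (13.2% of all genes tested were) and 4 were called higher (11.5%), namely Tagln2, Tpm1, Pgm5 and Flna. Without WT replicate 2 as well, the same 3 were lower (14.9%) and Tagln2, Cnn1, Synpo2 and Flna were higher (12.2%).

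**Figure D2:**
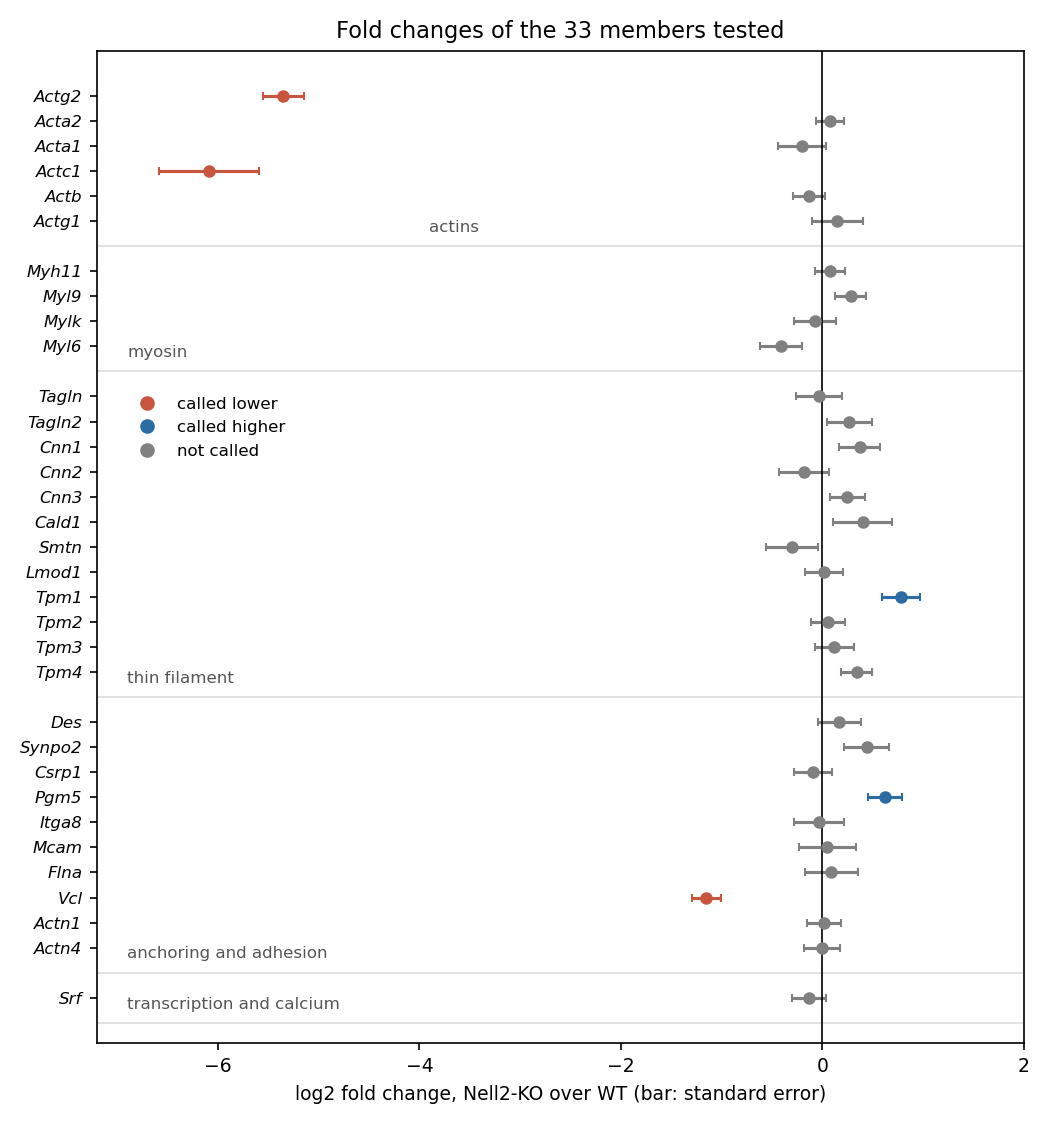
Log2 fold change of Nell2-KO over WT with its standard error for the 33 members tested, grouped by role, with calls at an edgeR adjusted p under 0.05 in color. Actg2 at -5.35, Actc1 at -6.09 and Vcl at -1.15 stand to the left, Tpm1 at 0.78 and Pgm5 at 0.62 to the right, and the 28 members in grey lie between -0.41 and 0.44.

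Among the myosin genes, 0 of 4 were called, 0 had an unadjusted edgeR p under 0.05, and DESeq2 called 0. Myh11, the smooth muscle myosin heavy chain, was at 188, 227, 161 and 173 CPM in WT and at 201, 233, 172 and 189 CPM in Nell2-KO. Its groups overlapped and its log2 fold change was 0.08 (edgeR, adjusted p = 0.793, 0.29 to 0.993 over the alternatives). Myl9, the regulatory light chain, was at 73.2 ± 9.02 and 88.4 ± 11.8 CPM in WT and Nell2-KO. Mylk, the kinase that phosphorylates this light chain, was at 288 ± 37.8 and 277 ± 88.5 CPM. Myl6, an essential light chain also used by nonmuscle myosin, had the most negative value among the members not called, with a log2 fold change of -0.41 and levels of 88.5 ± 6.06 and 63.8 ± 21.7 CPM. Its lowest library was Nell2-KO replicate 1 at 32.4 CPM, and without that library the log2 fold change was -0.23.

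Of the 12 thin filament genes, Tpm1 was called. Tpm1 encodes a tropomyosin, which lies along actin filaments and governs the access of myosin. It was at 222, 160.1, 229 and 224 CPM in WT and at 379, 283, 293 and 481 CPM in Nell2-KO. All 4 Nell2-KO libraries lay above all 4 WT libraries, WT replicate 2 was the lowest of its group, and Nell2-KO replicate 4 was the highest. The mean went from 209 ± 32.5 to 359 ± 92.1 CPM, which is 0.78 ± 0.19 (SE) on the log2 scale (edgeR, adjusted p = 0.0165). The call ended without WT replicate 2 (edgeR adjusted p = 0.0528), without that library and Nell2-KO replicate 1 (0.134) and by limma on the authors' RPKM (0.564), in a range of 0.00361 to 0.564 over the alternatives. The other tropomyosins, Tpm2, Tpm3 and Tpm4, had log2 fold changes of 0.06, 0.12 and 0.34. Of all uncalled members, Tpm4 alone had an unadjusted edgeR p under 0.05 (edgeR, adjusted p = 0.162, 0.0612 to 0.916 over the alternatives).

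Tagln encodes transgelin, an actin-binding protein of smooth muscle. It was at 94.4, 71.0, 107 and 98.5 CPM in WT and at 52.1, 132, 90.5 and 84.8 CPM in Nell2-KO. The widest values were both in Nell2-KO, and the group means of 92.6 ± 15.3 and 89.7 ± 32.6 CPM differed by less than either spread. Of its 36-base windows 51.5% also occur in other genes, most of them in the antisense transcript Gm48529. Cnn1, the calponin of smooth muscle, was at 43.1, 57.8, 32.6 and 40.1 CPM in WT and at 74.6, 55.2, 49.5 and 51.7 CPM in Nell2-KO. The groups overlapped through WT replicate 2, and the log2 fold change was 0.37 (edgeR, adjusted p = 0.26, 0.0183 to 0.805 over the alternatives). Cald1, which encodes caldesmon, spread widely in Nell2-KO: replicates 1 and 2 were at 231 and 183 CPM and replicates 3 and 4 at 93.6 and 84.4 CPM, around the 97.3 to 125 CPM of WT. Lmod1, a leiomodin that nucleates actin filaments, was at 12.9 ± 1.87 and 13.2 ± 1.24 CPM, and Smtn, or smoothelin, at 7.98 ± 2.18 and 6.08 ± 1.26 CPM. Cnn2, Cnn3 and Tagln2, relatives of calponin and transgelin that other cells also make, had log2 fold changes of -0.18, 0.25 and 0.27. Tagln2 stood at 91.5 CPM in Nell2-KO replicate 1, where Nell2-KO replicates 2 to 4 held 195 to 211 CPM and WT 138 to 160.2 CPM. Without Nell2-KO replicate 1 it was called higher, at a log2 fold change of 0.47 (edgeR adjusted p = 0.00153, 0.00011 to 0.977 over the alternatives).

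Among the 10 anchoring and adhesion genes, Vcl fell and Pgm5 rose. Vcl (ENSMUSG00000021823.10, chr14:20929398-21033676, plus strand) encodes vinculin, which links actin filaments to integrins and cadherins at the membrane of muscle and epithelial cells alike. It was at 209, 262, 233 and 210.3 CPM in WT and at 88.7, 117, 94.9 and 108 CPM in Nell2-KO. The groups were well apart, with every Nell2-KO library below every WT library. The mean went from 229 ± 24.7 to 102 ± 12.8 CPM, which is -1.15 ± 0.14 (SE) on the log2 scale, or 2.22-fold lower (edgeR, adjusted p = 0.00014), and the call held under all 14 alternatives (adjusted p up to 0.0412). Vcl overlaps Ap3m1 on the opposite strand, and 2059 of its 5367 windows of 36 bases, or 38.4%, also occur in Ap3m1 transcripts. Ap3m1 itself, a subunit of a vesicle adaptor complex, averaged 113 ± 8.14 CPM in WT against 134 ± 49.8 CPM in Nell2-KO, where replicate 1 held 208 CPM and replicates 2 to 4 held 105 to 115 CPM, and it was not called (edgeR, adjusted p = 0.576). The sources used here do not say how the counting treated strand, and the part of Ap3m1 in the Vcl counts was not tested.

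Pgm5 encodes aciculin, a protein of adhesion sites in muscle that is related to phosphoglucomutase. It was at 88.1, 78.3, 88.0 and 83.0 CPM in WT and at 151, 165, 113 and 97.5 CPM in Nell2-KO. The groups did not overlap, but Nell2-KO replicate 4 came close to the WT libraries. On the log2 scale the rise was 0.62 ± 0.17 (SE; edgeR, adjusted p = 0.0323). The call ended without any single WT library (edgeR adjusted p = 0.0755, 0.0853, 0.0758 and 0.0854 without replicates 1 to 4), without Nell2-KO replicate 2 (0.0984), without Nell2-KO replicate 1 and WT replicate 2 together (0.0946) and by limma on the authors' RPKM (0.68, in a range of 0.0121 to 0.68 over the alternatives).

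Desmin, the intermediate filament of muscle encoded by Des, was at 37.6, 26.0, 24.3 and 23.3 CPM in WT and at 29.6, 41.4, 30.9 and 26.2 CPM in Nell2-KO. Those groups overlapped, with a log2 fold change of 0.17 (edgeR, adjusted p = 0.654, 0.319 to 0.993 over the alternatives). Synpo2, an actin-bundling protein of the Z-disc and of dense bodies, had the most positive value among the members not called, with a log2 fold change of 0.44 from 18.1 ± 4.05 to 25.6 ± 5.34 CPM. Csrp1, a LIM-domain protein, was at 112 to 159 CPM in WT against 83.1 to 163 CPM in Nell2-KO, and Itga8, an integrin alpha subunit of mesenchymal and smooth muscle cells, at 50.3 ± 8.55 and 52.5 ± 19.0 CPM. Mcam, an adhesion molecule that endothelium also carries, was at 22.0 ± 5.40 and 21.9 ± 10.6 CPM. Actn1 and Actn4, the alpha-actinins that crosslink actin, had log2 fold changes of 0.02 and about 0, with Actn4 at 213 CPM in Nell2-KO replicate 1 but 126 to 129.5 CPM in replicates 2 to 4. Flna, a filamin, stood at 127 CPM in Nell2-KO replicate 1 but 325 to 355 CPM in replicates 2 to 4, with WT at 243 to 323 CPM. Without Nell2-KO replicate 1 Flna was called higher, at a log2 fold change of 0.32 (edgeR adjusted p = 0.0362, 0.0328 to 0.988 over the alternatives).

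Srf, the transcription factor that binds the CArG box, averaged 20.3 ± 2.13 CPM in WT against 18.4 ± 2.56 CPM in Nell2-KO. Myocd, which encodes the SRF coactivator myocardin, had 27 reads over the 4 WT libraries and 54 over the 4 Nell2-KO libraries, and 15 of the WT reads came from replicate 2. Pln, the regulator of the calcium pump of the sarcoplasmic reticulum, had 32 and 36 reads. Both genes fell below the expression filter of the main fit, and a moderate difference could be missed at this depth. Where alternatives tested them, neither was called. Myocd was tested in 7 (edgeR or DESeq2, adjusted p = 0.489 to 0.898) and Pln in 2 (0.498 to 0.63).

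**Figure D3:**
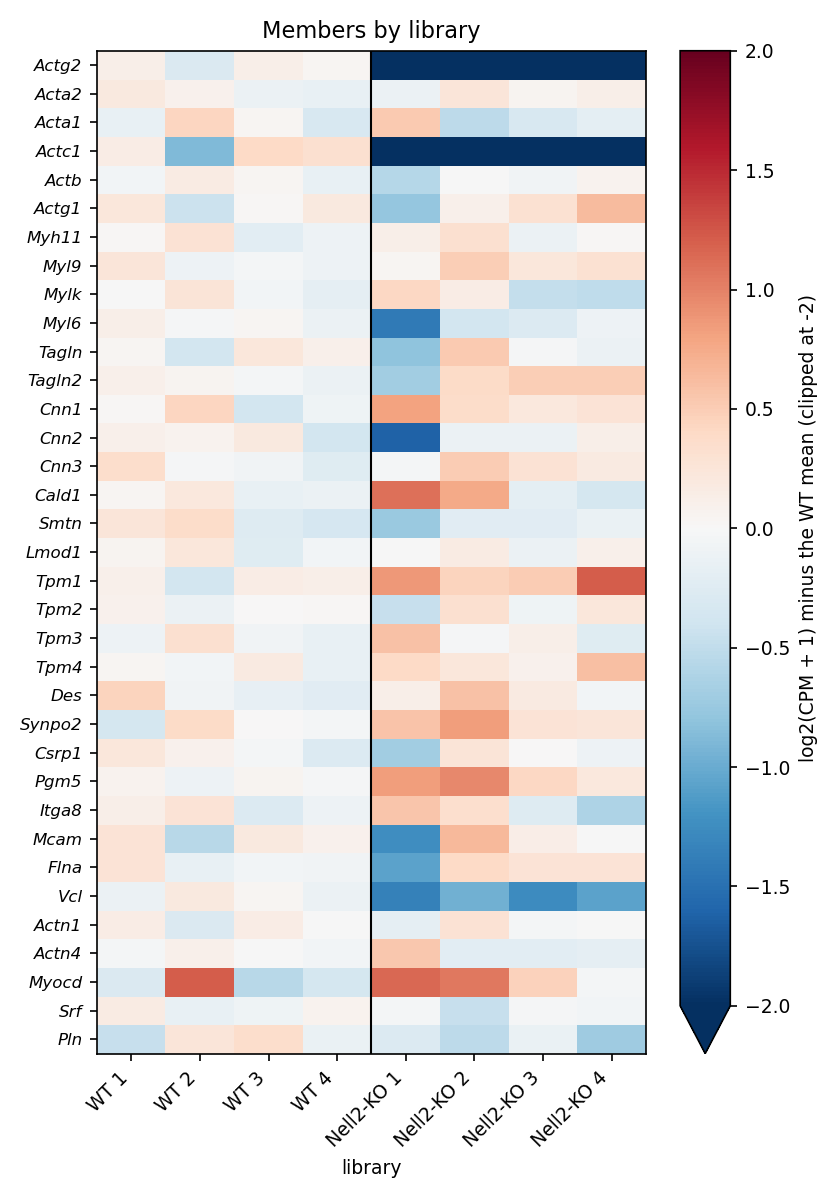
Each of the 35 members in each library as the log2 of CPM plus 1 minus its WT mean, clipped at -2, with red above and blue below the WT mean. Actg2 and Actc1 are at the end of the scale in all 4 Nell2-KO libraries and Vcl is below the WT mean in all 4, while Nell2-KO replicate 1 differs from the other Nell2-KO libraries in many members, among them Tagln2, Cnn2 and Flna.

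Actg2 was set against other genes of smooth muscle by ratios within a library. The log2 ratio of Actg2 to Acta2, each as CPM plus 1, was 1.73, 1.42, 2.04 and 2.0 in WT and -3.91, -3.45, -3.55 and -3.59 in Nell2-KO. Actg2 was therefore the more counted of the pair in every WT library and the less counted in every Nell2-KO library. The difference between the group means was -5.42 against Acta2, -5.43 against Myh11, -5.24 against Tagln, -5.76 against Cnn1 and -5.55 against Des, with the groups apart for each ratio. Since the fall of Actg2 was known and all 5 ratios share it, they are a description and carry no p. The ratio to Tagln was the tightest in WT, at 3.45 ± 0.09 (SD, n = 4), and it was -1.79 ± 0.21 in Nell2-KO.

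**Figure D4:**
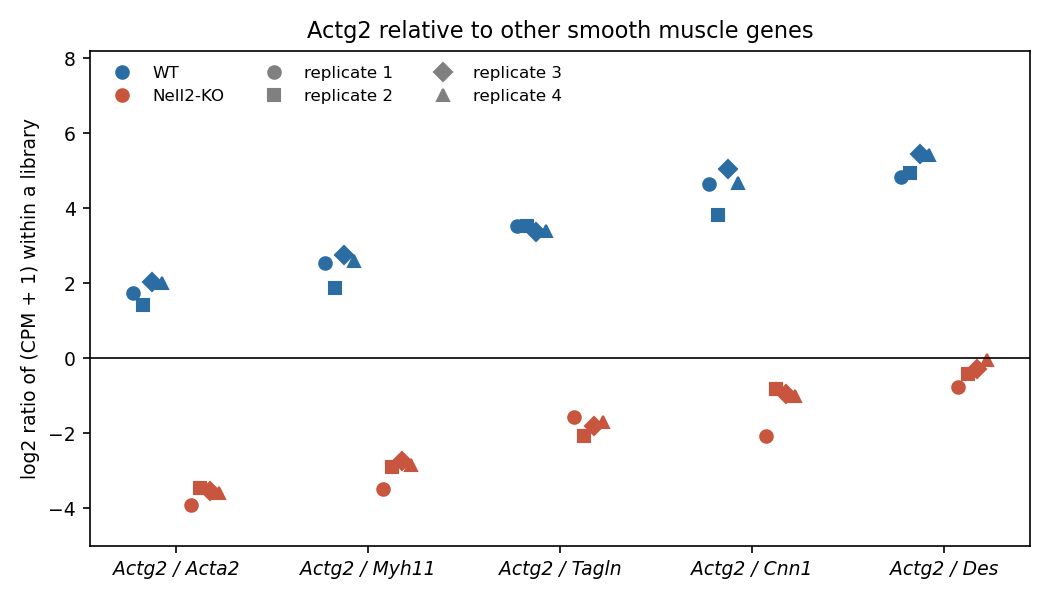
Log2 ratio of Actg2 to each of 5 other smooth muscle genes within a library, each gene as CPM plus 1, with WT in blue and Nell2-KO in red and a symbol per replicate. All WT ratios lie above 0 and all Nell2-KO ratios below 0, so that the 2 genotypes do not overlap for any of the 5.

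Levels of different genes were compared per transcript length, in the RPKM that the authors deposited. Actg2 had the highest RPKM of the 35 members in WT, at 543, 343, 530.5 and 511, followed by Actb at 148 ± 7.14, Myl6 at 89.0 ± 10.1, Actg1 at 83.9 ± 21.1 (SD, n = 4), and then by Acta2 at 83.5, 65.6, 65.8 and 65.3. The ranges of Actg2 and Actb did not overlap in WT, nor did those of Actb and Myl6, while Myl6, Actg1, Acta2 and Tagln2 overlapped from each to the next. Down the whole order, 29 of the 34 pairs of neighbours overlapped. Myocd was the lowest, at 0.361 ± 0.285 RPKM. In Nell2-KO, Actg2 was at 3.49, 15.4, 12.6 and 12.5 RPKM, with the lowest value in replicate 1, whose RPKM were low for most members.

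Actg2 RPKM was 6.50, 5.23, 8.07 and 7.82 times that of Acta2 in WT replicates 1 to 4. In Nell2-KO replicates 1 to 4 the ratio was 0.124, 0.173, 0.161 and 0.157. As a share of the summed RPKM of the 6 actins, Actg2 made up 54.9% to 61.8% in WT and 3.13% to 4.24% in Nell2-KO. Without Actg2, the summed RPKM of the other 5 actins was 282 to 352 in WT and 346, 348 and 385 in Nell2-KO replicates 2 to 4, and 98.4 in Nell2-KO replicate 1. Both smooth muscle actins were thus present in WT with Actg2 the more abundant per length, and in Nell2-KO Acta2 was the more abundant.

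Promoters were examined because many contractile genes carry CArG boxes, spelled CC, then 6 bases that are each A or T, then GG. The RefSeq table (GRCm38.p6) held a promoter, 250 bases before to 50 after the transcript start, for 30 of the 35 members, and had no entry for Actg2, Actb, Myh11, Tagln and Myocd. A CArG box of exactly this spelling on either strand occurred in 8 of the 30, namely Acta1, Actc1, Actg1, Cnn2, Myl6, Myl9, Srf and Vcl, against 1.81% of the 27025 genes in the table. Boxes that depart from the spelling or lie outside the window were not searched for, so the other members may carry such boxes. CATTCC, the core of the MCAT element bound by TEAD factors, occurred in 11 of the 30 on either strand, against 16.6% of genes. The 250 bases before the start are printed for Actc1 and Vcl, which fell, for Myl9, which was not called, and for Tpm1, which rose, with CArG boxes in capitals.
Actc1 (chr2:114052876-114053125, minus strand): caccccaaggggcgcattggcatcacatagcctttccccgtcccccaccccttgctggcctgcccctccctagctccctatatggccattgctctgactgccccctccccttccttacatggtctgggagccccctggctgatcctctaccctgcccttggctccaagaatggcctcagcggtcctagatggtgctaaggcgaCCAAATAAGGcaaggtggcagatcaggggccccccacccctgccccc
Vcl (chr14:20929148-20929397, plus strand): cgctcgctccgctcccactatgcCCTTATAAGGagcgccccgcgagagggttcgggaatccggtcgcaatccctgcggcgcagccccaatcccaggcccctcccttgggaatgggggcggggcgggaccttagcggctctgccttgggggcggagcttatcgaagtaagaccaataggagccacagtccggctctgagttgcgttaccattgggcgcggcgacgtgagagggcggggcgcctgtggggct
Myl9 (chr2:156775214-156775463, plus strand): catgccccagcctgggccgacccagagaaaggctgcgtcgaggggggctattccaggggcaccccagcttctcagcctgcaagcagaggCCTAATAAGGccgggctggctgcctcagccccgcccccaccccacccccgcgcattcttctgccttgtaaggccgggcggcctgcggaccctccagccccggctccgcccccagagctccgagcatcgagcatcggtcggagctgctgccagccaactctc
Tpm1 (chr9:67049214-67049463, minus strand): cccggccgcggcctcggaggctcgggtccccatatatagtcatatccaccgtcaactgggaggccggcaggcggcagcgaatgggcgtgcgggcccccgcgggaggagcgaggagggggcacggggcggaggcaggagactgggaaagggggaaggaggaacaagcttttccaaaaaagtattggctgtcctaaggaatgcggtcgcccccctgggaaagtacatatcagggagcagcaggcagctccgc
The CArG box began 47 bases before the start in Actc1, 227 before it in Vcl and 161 before it in Myl9, and the Tpm1 window held none. These letters are a description of the windows. Of the 8 members with a box, 2 were called lower and 0 higher, while 6 were not called. Among all genes tested, 8.71% were called lower and 6.24% higher. A link between the box and a change was not tested, and 8 genes are few for it.

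Genes that set off or tune contraction were read from a separate list. Of 21 tested genes of contraction signalling and calcium, 4 were called lower and 2 higher (19.0% and 9.52%, against 8.71% and 6.24% of all genes tested), with a median log2 fold change of 0.08. Oxtr, the receptor for oxytocin, a hormone that makes smooth muscle contract, was at 143, 182, 151 and 140.5 CPM in WT and at 29.6, 11.6, 21.5 and 34.5 CPM in Nell2-KO. The groups did not overlap, and the log2 fold change was -2.64 ± 0.25 (SE), or 6.22-fold lower (edgeR, adjusted p = 1.7e-05). Camk2d, a subunit of a calcium-dependent kinase, fell by 0.95 on the log2 scale (edgeR, adjusted p = 0.00214) and was called in 13 of 14 alternatives. Kcnma1, the pore of the large calcium-activated potassium channel, rose from 9.61 ± 3.38 to 21.8 ± 1.99 CPM (edgeR, adjusted p = 0.00481). The call of Kcnma1 also held in 13 of 14 alternatives. Without Nell2-KO replicate 1, 7 of the list were called lower and 3 higher (33.3% and 14.3%, against 13.2% and 11.5% of all genes tested).

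Of 29 tested genes on a list of further smooth muscle genes, Fhl1 was called higher and Pdlim7 lower (3.45% each, against 6.24% and 8.71% of all genes tested), and the median log2 fold change was 0.17. Fhl1, a LIM-domain protein of muscle, went from 118 ± 4.95 to 168 ± 16.7 CPM, and Pdlim7, which joins LIM and PDZ domains at actin filaments, from 13.8 ± 2.07 to 6.47 ± 1.86 CPM (edgeR, adjusted p = 0.0179 and 0.00697). The call of Fhl1 ended without WT replicate 1, WT replicate 3 or Nell2-KO replicate 2 and held in 9 of 14 alternatives (adjusted p up to 0.767), and that of Pdlim7 held in 12 (up to 0.125). Leaving out Nell2-KO replicate 1 gave 3 of the list higher and 4 lower (10.3% and 13.8%, against 11.5% and 13.2% of all genes tested).

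Among 13 tested cofactors and regulators of SRF, 2 were called lower (15.4%, against 8.71% of all genes tested), with a median of -0.19. These were Mkl2, a myocardin-related coactivator, at 54.4 ± 9.29 and 34.1 ± 3.74 CPM in WT and Nell2-KO, and Prrx1, a homeobox factor of mesenchyme, at 456 ± 60.3 and 246 ± 78.4 CPM. With Nell2-KO replicate 1 left out, 3 were called lower (23.1%, against 13.2% of all genes tested). Without WT replicate 2 as well, 4 were lower and 1 higher (30.8% and 7.69%, against 14.9% and 12.2%). The call of Mkl2 ended without Nell2-KO replicate 4 and by limma on the authors' RPKM (adjusted p up to 0.288 over the alternatives). Among 21 tested genes of nonmuscle actomyosin, 3 were called lower (14.3%, against 8.71% of all genes tested), with a median of 0.01. Myh9, the nonmuscle myosin heavy chain, fell from 182 ± 26.7 to 75.6 ± 21.9 CPM at a log2 fold change of -1.22 (edgeR, adjusted p = 0.00131), next to -1.15 for Vcl. The call of Myh9 held in 13 of 14 alternatives. Arpc2 and Pfn1, which nucleate and feed actin filaments, had log2 fold changes of -0.50 and -0.49 (edgeR, adjusted p = 0.0348 and 0.044). Both calls ended when any 1 library other than Nell2-KO replicate 1 was left out, and Myh9 was then the 1 gene of the list called lower. Over all 14 alternatives the calls of Arpc2 and Pfn1 held in 5 and 4 (adjusted p up to 0.177 and 0.385). In the fit without Nell2-KO replicate 1, 4 of the list were called lower and 2 higher (19.0% and 9.52%, against 13.2% and 11.5% of all genes tested).

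Marker genes of other cells that the tissue could hold were summed in each library. The summed CPM of the 19 smooth muscle typical members without Actg2 was 1585 to 1813 in WT and 1725 to 2233 in Nell2-KO, which overlap. Fibroblast markers summed to 1333 to 1494 CPM and 1126 to 1446 CPM. Of 11 tested, 1 was called lower (Pdgfra) and 1 higher (Dcn), or 9.09% each, against 8.71% and 6.24% of all genes tested. Without Nell2-KO replicate 1, 2 were higher (18.2%, against 11.5%). The median log2 fold change of the list was 0.39, and 9 of the 11 had positive values. The sum therefore joins the fall of Pdgfra, a large share of it in WT, to mostly positive values elsewhere in the list. Pdgfra, a growth factor receptor of mesenchymal cells, fell from 517 ± 42.7 to 121 ± 23.7 CPM (edgeR, adjusted p = 2.4e-06) and was called in all 14 alternatives. Dcn was called in 5 of them (edgeR adjusted p up to 0.728) and in 2 of the 8 fits that left out 1 library, those without Nell2-KO replicate 1 or 4. Pericyte markers summed to 68.4 to 79.1 CPM and 58.9 to 101 CPM, and of 5 tested Rgs5 was called lower and Notch3 higher. The groups of Notch3 overlapped, with 8.45 CPM in Nell2-KO replicate 1 below the 10.3 to 13.3 CPM of WT, and its call held in 5 of 14 alternatives (edgeR adjusted p up to 0.668) and ended when any 1 library other than Nell2-KO replicate 1 was left out.

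Endothelial markers were lower in every Nell2-KO library, at summed levels of 79.2 to 100.3 CPM against 148 to 195 CPM. Of 11 tested, 5 were called lower (45.5%, against 8.71% of all genes tested), Pecam1, Kdr, Emcn and Eng among them. Eng was called in 13 of 14 alternatives, and Pecam1, Kdr and Emcn in all 14. Basal cell markers were lower too, at summed levels of 304 to 356 CPM against 495 to 531 CPM. Of 5 tested, 3 were called lower (60.0%, against 8.71% of all genes tested). Itga6 and Trp63 were each called in 13 of 14 alternatives and Cldn1 in 10. Schwann cell markers summed to more in every Nell2-KO library, at 95 to 161 CPM against 68.0 to 78.3 CPM. Of 4 tested, S100b was called higher (25.0%, against 6.24% of all genes tested). Its call held in 9 of 14 alternatives and not without WT replicate 1, WT replicate 2 or Nell2-KO replicate 3 (edgeR adjusted p up to 0.535). When Nell2-KO replicate 1 was left out, 3 of the 4 were called higher, against 11.5% of all genes tested. Without WT replicate 2 as well, 2 of the 4 were, against 12.2%. Of 9 principal cell markers, 4 were called higher and 3 lower (44.4% and 33.3%, against 6.24% and 8.71% of all genes tested). Wfdc3 rose from 4.31 ± 1.86 to 19.3 ± 8.2 CPM, a log2 fold change of 2.31 (edgeR, adjusted p = 0.00075), and was called in 13 of 14 alternatives. Cdh16 rose from 192 ± 45.9 to 356 ± 97.2 CPM with overlapping groups (edgeR, adjusted p = 0.0215) and was called in 8. Pax8 fell from 154 ± 7.13 to 86.0 ± 16.3 CPM (edgeR, adjusted p = 0.00289) and was called in 13. Crisp1, a secreted protein that coats sperm, averaged 1198 ± 180.3 CPM in WT. Its Nell2-KO mean of 105 ± 146 CPM rested on replicate 1, which held 323 CPM, and replicates 2 to 4 averaged 31.8 ± 20.7 CPM (SD, n = 3). Its log2 fold change was -3.67 with and -5.18 without Nell2-KO replicate 1, and its call held in 13 of 14 alternatives. Without Nell2-KO replicate 1, 3 principal cell markers were called higher and 3 lower (33.3% each, against 11.5% and 13.2% of all genes tested). Germ cell markers summed to 57.9 to 76.0 CPM and 57.4 to 116 CPM, and of the 3 tested Akap4 had the lowest edgeR adjusted p (0.338).

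Markers of skeletal muscle, which has actins of its own, summed to 4.86 to 10.2 CPM in WT and 1.41 to 10.4 CPM in Nell2-KO, none of the 10 had enough reads to be tested, and Tnnc2 was at 0 in all 8 libraries. Adipocyte markers summed to 13.7 to 19.0 CPM and 14.0 to 23.9 CPM, with Cfd at 0. The part that these shifts have in the falls of Actg2, Actc1 and Vcl was not tested. The ratios of Actg2 to Acta2, Myh11, Tagln, Cnn1 and Des above were measured within each library.

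**Figure D5:**
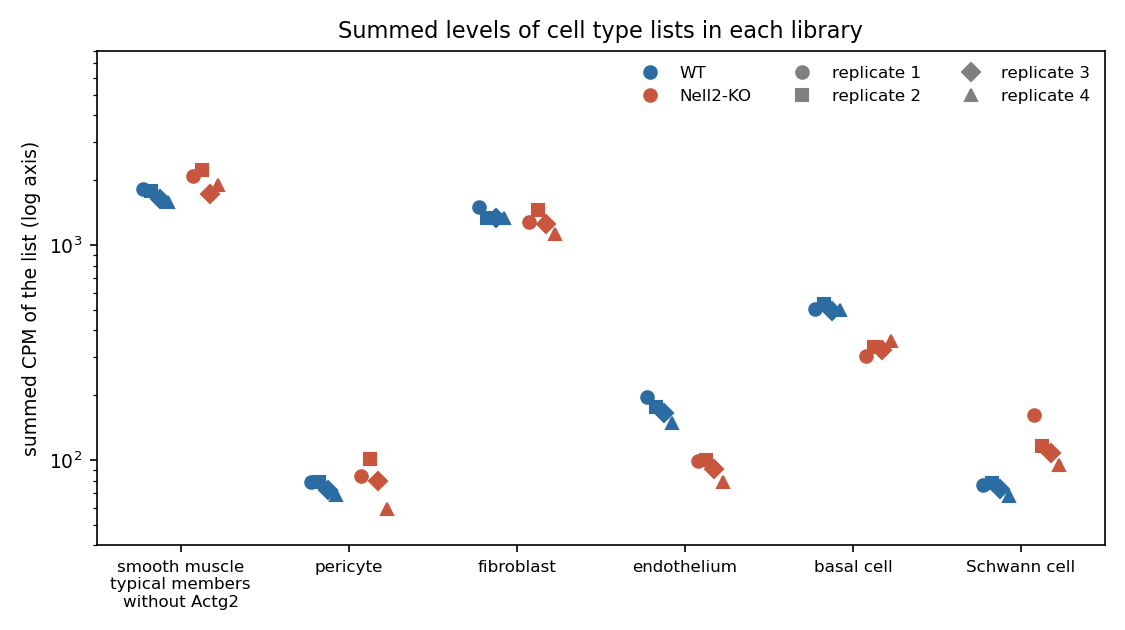
Summed CPM of marker lists in each library on a log axis, with WT in blue and Nell2-KO in red and a symbol per replicate. The smooth muscle members without Actg2 lie at 1585 to 2233 CPM over both groups and overlap, endothelial and basal cell sums are lower in all 4 Nell2-KO libraries, and Schwann cell sums are higher.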

How the data were processed

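The deposited table gives raw counts and RPKM by gene for 8 libraries, per the file headers. The labels' protocols name column extraction, TargetAmp RNA amplification, the KAPA Stranded mRNA-Seq kit and GAIIx sequencing of single ends of 36 bases. Per the submitters' processing notes the build was mm10 and the tools were Bowtie2 2.2.0, CASAVA 1.8.2 and FastQC 0.11.2. The counter, its strand setting and its rule for reads with several matches were not given in the sources used here. Groups came from sample titles. No pair of replicates matched within sampling noise (chi-square of counts per degree of freedom at least 1.27).

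Counts were fitted over all genes with edgeR 4.0.16 in R 4.3.3 (TMM, default expression filter, robust quasi-likelihood F test of genotype), with Benjamini-Hochberg adjustment over 11062 genes and a threshold of 0.05. The script was tested on simulated data. CPM are counts over library totals times TMM factors, SE were derived from the F statistic, and folds are edgeR's fitted values. Amplified RNA without molecular identifiers means that floors (3 counts) and intervals describe counting error alone. Ratios were computed in Python 3.11.15 from CPM plus 1 and are given without their planned permutation p, because Actg2 was chosen for its fall. Alternatives were RLE scaling, no filter, DESeq2 1.42.0, limma 3.58.1 on log2(RPKM + 1), a pseudocount of 0.1 CPM for ratios, the replicate number as a block, and libraries left out. GENCODE M21 and RefSeq (GRCm38.p6) gave positions and sequences.

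The members and lists were chosen with earlier results of these data known. The rule named all 35 members and up to 4 called genes of each other list by adjusted p, of which 1 is not reported here; Ap3m1, Malat1, Nell2, Tnnc2, Cfd and Akap4 lie outside it and were picked with their values in view.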

Additional observations from a re-analysis of the deposited data

Results flagged for a closer look

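In groups of 4 libraries, 15 of 124 combinations of gene and group (62 genes, the members and named genes of other lists) had 1 library far from the other 3, its gap to the nearest of them exceeding Dixon's 95% critical share of the group's range; chance alone gives about 1 in 20. Ap3m1 and Malat1, which were looked up with their values in view, add 1 each and are no part of that count. Of the 17 in all, 8 were in Nell2-KO replicate 1 and 5 in WT replicate 2.

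In Nell2-KO replicate 1, among the members, Tagln2 was at 91.5 CPM (195 to 211 in the other 3), Smtn at 4.23 CPM (6.54 to 7.01), Flna at 127 CPM (325 to 355) and Actn4 at 213 CPM (126 to 129.5). In the same library Emcn was at 18.3 CPM (7.27 to 7.72), Wfdc3 at 7.04 CPM (22.8 to 24.0), Crisp1 at 323 CPM (15.1 to 55.0) and Ap3m1 at 208 CPM (105 to 115). In WT replicate 2, Tpm1 was at 160.1 CPM (222 to 229 in the other 3), Tpm3 at 272 CPM (196 to 208), Myocd at 7.34 CPM (1.46 to 1.96), Cdh16 at 124 CPM (205 to 219.9) and Malat1 at 7162 CPM (985 to 1130). In WT replicate 1, Myl9 was at 86.5 CPM (67.6 to 70.5) and Pecam1 at 27.4 CPM (26.3 to 26.5). In Nell2-KO replicate 2, Srf was at 14.5 CPM (19.4 to 19.8) and Kdr at 13.1 CPM (4.27 to 5.63).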

How the results depend on the processing

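Actg2, Actc1 and Vcl were called lower under each of the 14 alternatives, and Actg2 was the 1 smooth muscle typical member called lower in each. Limma on the authors' RPKM used no TMM or RLE scaling, and the median log2 fold change of all genes shifted from 0.03 to -0.16. By that fit 69 genes were called higher and 516 lower, with 0 members and 0 typical members higher. The replicate numbers did not pair the samples (correlations of deviations from group means of -0.278, -0.166, 0.171 and 0.164). With the replicate block, 436 genes were called higher and 748 lower, 1 member and 1 typical member were higher, and 0 further smooth muscle genes were higher and 0 lower, with 1 contraction gene higher and 1 nonmuscle actomyosin gene lower; Pgm5 was no longer called (edgeR adjusted p = 0.0818). For the ratios of Actg2 to Acta2, Myh11, Tagln, Cnn1 and Des the block is no check of the differences, -5.42, -5.43, -5.24, -5.76 and -5.55. With 4 complete pairs the mean paired difference equals the difference of group means, and no exact p below 0.125 is possible. Without Nell2-KO replicate 1 and WT replicate 2 the ratio differences were -5.45, -5.46, -5.3, -5.72 and -5.5, where 3 against 3 libraries cannot give an exact p below 0.1. In that fit 1391 genes were higher and 1694 lower, with 4 members higher. Leaving out libraries, alone or as that pair, gave ratio differences of -5.55 to -5.33, -5.63 to -5.27, -5.32 to -5.15, -6.01 to -5.48 and -5.66 to -5.42. It gave 443 to 1391 genes higher and 748 to 1694 lower, the highest without that pair, next to 1301 and 1485 without Nell2-KO replicate 1 alone; among members 0 to 4 higher, among typical members 0 to 2. With 1 library left out, the calls were among further smooth muscle genes 0 to 3 higher and 1 to 4 lower, among contraction genes 1 to 3 and 3 to 7, among SRF regulators 1 to 3 lower, and among nonmuscle actomyosin genes 0 to 2 and 1 to 4; without the pair these lists had 4 and 3, 3 and 6, 1 and 4, and 3 and 5. Of all genes tested, 11.5% were called higher and 13.2% lower without Nell2-KO replicate 1, and 12.2% and 14.9% without the pair. The causes were not tested.

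The sign turned in 46 values of 16 members, all uncalled in either fit, with sizes up to 0.2 and an adjusted p of 0.666 or more in that alternative (edgeR, limma or DESeq2). By limma on RPKM the log2 fold changes were -0.14 for Acta2, -0.15 for Actg1, -0.12 for Myh11, -0.05 for Tagln2, -0.09 for Lmod1, -0.17 for Tpm2, -0.11 for Tpm3, -0.18 for Mcam, -0.2 for Flna and -0.15 for Actn1, beside that median of -0.16. With DESeq2 Itga8 was at 0.01, and with RLE scaling Actn4 was at 0.01. Over left-out libraries the ranges were -0.2 to 0.05 for Actb, -0.05 to 0.36 for Actg1, -0.26 to 0.06 for Mylk, -0.23 to 0.11 for Tagln, -0.04 to 0.11 for Lmod1, -0.02 to 0.14 for Tpm2, -0.04 to 0.24 for Tpm3, -0.21 to 0.05 for Csrp1, -0.22 to 0.18 for Itga8, -0.12 to 0.18 for Mcam, -0.02 to 0.32 for Flna, -0.07 to 0.07 for Actn1 and -0.19 to 0.07 for Actn4. Depth limits Actc1, Myocd and Pln, and in Nell2-KO replicate 1 a count of 0 allows up to 4.23 CPM.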
